A study of Homo sapiens with 9 samples.

Results

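The comparison described here set MDA-MB-231 cells with a *TRPV4* hairpin (shTRPV4) beside cells with a non-targeting scramble hairpin (SC), both kept at a viscosity of 8 cP. It covers 6 of the 9 samples of the series, 3 of each line, and all 18264 genes with enough counts to be tested out of 60664 listed. MDA-MB-231 is a human triple-negative breast cancer cell line. Both lines carried their hairpin in the same lentiviral vector (pLKO.1 puro) under puromycin selection, and both were collected on day 6 in medium thickened with methylcellulose. The other 3 samples were SC cells at 0.77 cP, the viscosity of plain medium. Their levels are given as a reference in places, and they share the estimate of the spread. The comparison asks which transcripts depend on the hairpin line when viscosity is fixed. The study's methods do not say whether a line was a pool or a clone, and no shTRPV4 sample at 0.77 cP was used here, so a difference of the knockdown line at any viscosity and one that needs 8 cP cannot be told apart. Nothing in the labels says that the samples of a group came from separate cultures, so the p-values measure the spread between these samples, which may be technical.

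TRPV4 is a cation channel of the plasma membrane that opens on cell swelling and membrane stretch and lets calcium enter. Calcium then acts through calmodulin, calcineurin and protein kinase C, and in migrating cells it is linked to ROCK and myosin II contractility. Hypoxia-inducible factors, which appear below, raise glycolytic enzymes and lower mitochondrial metabolism in many tumour lines, and feedback inhibitors such as Sprouty proteins and DUSP6 follow the activity of the RAS-ERK pathway.

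The labels do not name the hairpin of these samples. The one that the study's methods give for nearly all of its experiments was taken, and it pairs with a site in the 3′ UTR of *TRPV4*, in exon 16 of 16 on the minus strand of chromosome 12 (GRCh38, chr12:109783398-109783418). The site is printed below in the direction of the mRNA, because the same letters are counted in other genes further on. The capitals mark the 7 bases that pair with bases 2 to 8 of the antisense strand, the seed.
TRPV4: tgctcctatggagTCACATAa
Of 13579 tested genes with an annotated 3′ UTR, 1 held the whole site.

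*TRPV4* (ENSG00000111199, GRCh38, chromosome 12 from 109783087 to 109833406) was barely expressed. It had 64, 45 and 24 counts in the SC samples at 8 cP and 7, 1 and 13 counts in the shTRPV4 samples, of which the count of 1 lies under the floor of 3 counts. The samples of the 2 lines did not overlap, and every shTRPV4 sample was under every SC sample. Over all genes tested, 36.3% showed no overlap in either direction. As CPM, read counts scaled to a common library size, the mean of *TRPV4* was 0.459 ± 0.191 in the SC line at 8 cP (SD, n = 3) and 0.0776 ± 0.0655 in the knockdown line (SD, n = 3), a log2 fold change of -2.51 (SE 0.49, edgeR adjusted p = 0.00219). In these bulk samples fewer expressing cells and less RNA per cell cannot be told apart.

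The knockdown line differed from SC cells in many genes by small amounts. At an edgeR adjusted p under 0.05, 20.0% of the genes tested were called (3649 genes), 9.02% higher in shTRPV4 cells (1647 genes) and 11.0% lower (2002 genes). The median absolute log2 fold change of the called genes was 0.30, and 73.7% of them changed by less than 0.5 on that scale. A change of at least 1 was found for 144 genes that rose and 201 that fell. Of protein-coding genes, 24.2% were called, 10.8% higher and 13.5% lower. These shares are the nearer comparison for the lists below, whose members are nearly all protein-coding. When the genes were ranked by level and divided into 4 equal bins, 5.63% of the lowest bin and 26.9% of the highest were called.

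The 6 samples held between 77058281 and 99317705 counts. Mitochondrially encoded genes took 3.28% to 3.40% of the counts of shTRPV4 samples, against 2.23% to 2.44% in SC samples at 8 cP. All 15 genes that define MDA-MB-231 were tested, 3 higher and 5 lower in shTRPV4 cells. *VIM*, the mesenchymal filament vimentin, stood at 931 ± 15.8 CPM (SD, n = 3) in SC and 766 ± 11.9 CPM (SD, n = 3) in shTRPV4 cells. Of 11 luminal breast markers 7 were tested and 1, *GATA3*, was higher (12.8 to 15.8 CPM). The hormone receptors *ESR1* and *PGR* had at most 3 counts in any of the 6 samples, whereas *KRT19* had a mean of 581 CPM in SC and 516 CPM in shTRPV4 cells and *ERBB2* 95.5 and 93.3 CPM. Of 22 leukocyte markers 7 passed the filter on low counts, with a summed level of 16.1 to 17.0 CPM in SC samples and 12.9 to 13.2 CPM in shTRPV4 samples at 8 cP. Of these *CSF1R*, *TRAC* and *LYZ* were lower (log2 fold changes -0.50, -0.63 and -1.02) and *CD8A* was higher (0.54). The pan-leukocyte marker *PTPRC* had 6 to 17 counts a sample and *CD14* 265 to 451 counts, and *CD2*, *CD3G*, *CD4* and *MS4A1* were at 0 counts in all 6. Of 15 fibroblast and endothelial markers 9 passed, with a summed level of 32.5 to 37.0 CPM in SC samples and 28.9 to 32.4 CPM in shTRPV4 samples. Of these *LUM* was higher (log2 fold change 1.09) and *KDR* lower (-0.89). *COL1A2* had 1191 to 1922 counts a sample, and *DCN* and *CDH5* had at most 1. The part of these markers in the results below was not tested.

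Genes of adhesion, small GTPase signalling and cytokinesis were among those that fell with the smallest adjusted p. *ITGB1*, the integrin beta 1 chain shared by most receptors for collagen, laminin and fibronectin (chromosome 10, 32887273 to 33005792, minus strand), had 1918, 1946 and 1917 CPM in the SC samples and 894, 943 and 935 CPM in the shTRPV4 samples. No shTRPV4 sample reached the level of any SC sample. The log2 fold change was -1.06 (SE 0.05, edgeR adjusted p = 2.6e-09). *ARHGDIB*, a GDP-dissociation inhibitor of small GTPases, fell from 116 ± 2.23 CPM to 56.5 ± 4.36 CPM (SD, n = 3 each, log2 fold change -1.04, edgeR adjusted p = 9.6e-09). *RACGAP1*, a GTPase-activating protein of the cytokinetic spindle, fell from 231 ± 6.6 CPM to 124 ± 1.98 CPM (log2 fold change -0.90, edgeR adjusted p = 5.21e-09). *TLR4*, the receptor for lipopolysaccharide, had 25.4, 25.3 and 24.5 CPM in SC samples and 11.8, 11.7 and 11.8 CPM in shTRPV4 samples (log2 fold change -1.09), with 678 exon bases shared with a gene on the same strand. *PHLDA2*, a small pleckstrin-homology protein of the imprinted region of chromosome 11, fell from 95.0 ± 0.91 CPM to 44.6 ± 2.74 CPM, *ATXN7L3B* from 60.7 ± 1.18 CPM to 32.1 ± 0.958 CPM, *PDIA6*, a disulfide isomerase of the endoplasmic reticulum, from 242 ± 2.59 CPM to 139 ± 2.83 CPM and *NOC2L*, a histone acetylation inhibitor, from 205 ± 9.47 CPM to 103.7 ± 4.23 CPM (SD, n = 3 each). In all of these genes the samples of the lines stayed apart, with an SD within a line that was small beside the gap. The genes were picked for a small adjusted p, which favours such a pattern. Samples of the lines also stayed apart in 3570 of the 3649 called genes and in 36.3% of all genes tested.

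**Figure D1:**
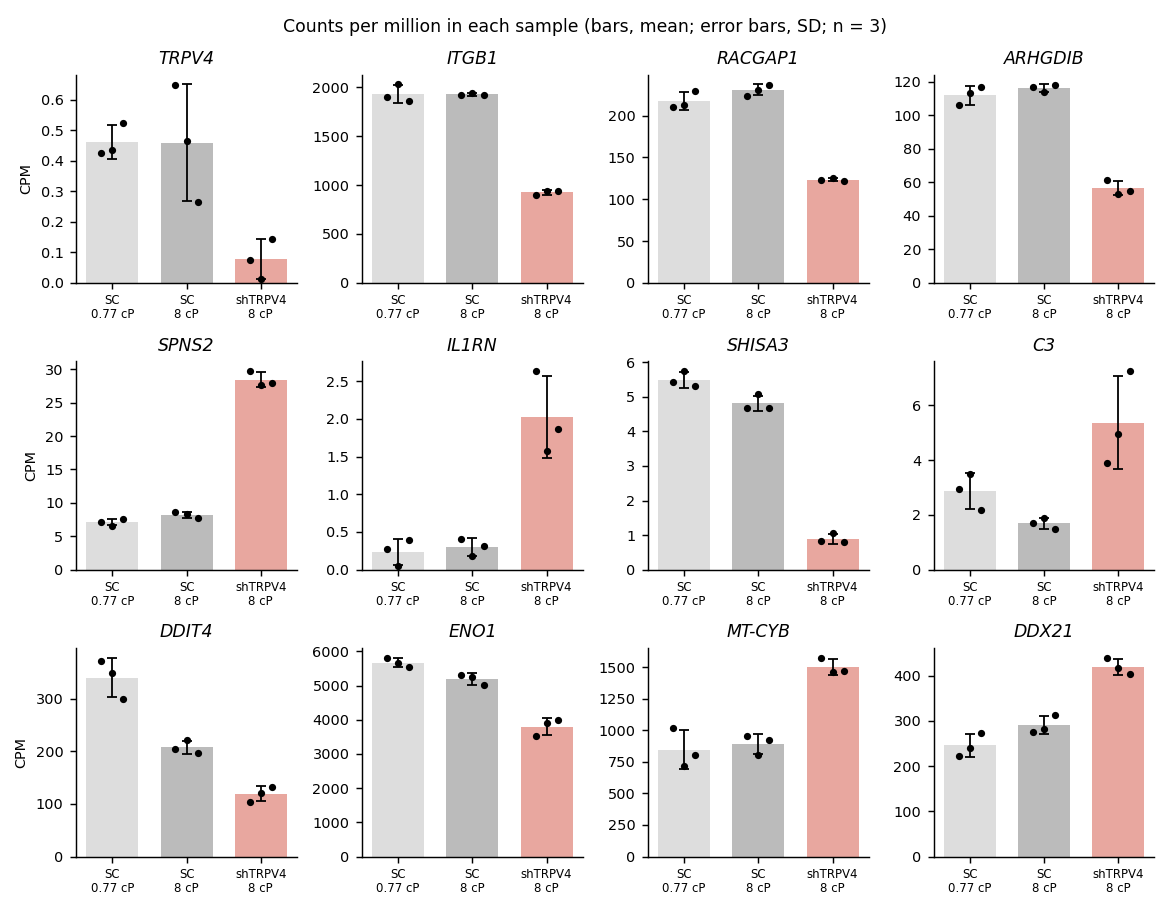
Level of 12 genes in every sample, in CPM on axes that start at 0, for SC at 0.77 cP, SC at 8 cP and the knockdown line at 8 cP. Bars are means, error bars SD and points the 3 samples of each group. *ITGB1* lies between 894 and 943 CPM in shTRPV4 samples and between 1917 and 1946 CPM in SC samples at 8 cP, and *SPNS2* lies between 27.6 and 29.7 CPM in shTRPV4 samples and between 7.73 and 8.57 CPM in SC samples at 8 cP.

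The smallest adjusted p of the whole comparison belonged to a gene that rose. *SPNS2*, which exports sphingosine-1-phosphate, had 8.57, 8.41 and 7.73 CPM in SC samples and 29.7, 27.6 and 27.9 CPM in shTRPV4 samples. This was a 3.45-fold rise (log2 fold change 1.79, SE 0.07, edgeR adjusted p = 1.05e-09). *LRIG1*, a membrane protein that restrains EGF receptor signalling, rose from 34.4 ± 0.395 CPM to 64.8 ± 1.15 CPM (SD, n = 3 each, log2 fold change 0.92). Its exons share 2669 bases with genes on the other strand. *MYLK*, the kinase of the myosin regulatory light chain, rose from 63.4 ± 2.72 CPM to 98.9 ± 2.93 CPM (log2 fold change 0.64, edgeR adjusted p = 2.58e-07). *MSLN* (mesothelin), the ubiquitin ligase *RNF128*, the protocadherin *PCDH1*, the secretory granule protein *SCG5* and *CD2AP*, an adaptor of the actin cytoskeleton, also rose, by between 0.56 and 1.23 on the log2 scale. The exons of *SCG5*, at the top of this range, share 1129 bases on the same strand with other annotation.

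The largest rises were of genes with mean levels under 10 CPM in SC cells. *IL1RN*, the antagonist of the interleukin-1 receptor, had 0.404, 0.176 and 0.319 CPM in SC samples and 2.63, 1.57 and 1.87 CPM in shTRPV4 samples (log2 fold change 2.75, edgeR adjusted p = 0.000109). *TRBC2*, a constant segment of the T-cell receptor beta locus, rose from 1.73 to 7.36 CPM and *PRSS2*, a trypsinogen of the same region of chromosome 7, from 2.52 to 8.31 CPM. The neurotrophin *NTF3* rose by 1.92, the potassium channel *KCNJ15* by 1.78 and the cytokine *IL24* by 1.93 on the log2 scale. *ALPP* and *VTN* rose by 2.10 and 1.99, but 631 bases of *ALPP* exons are shared with genes on the other strand and 329 bases of *VTN* exons with a gene on the same strand, so their reads may be split.

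The largest falls were also of genes with mean levels under 10 CPM in SC cells. *SHISA3* had 4.68, 5.07 and 4.68 CPM in SC samples and 0.819, 1.05 and 0.807 CPM in shTRPV4 samples (log2 fold change -2.44, edgeR adjusted p = 4.9e-09). *ARHGAP30*, a GTPase-activating protein, fell from 5.21 ± 0.195 CPM to 0.984 ± 0.255 CPM (SD, n = 3 each, log2 fold change -2.40). *LCP1*, the actin-bundling protein L-plastin, had 8.16, 8.70 and 9.78 CPM in SC samples and 2.97, 2.17 and 1.22 CPM in shTRPV4 samples (log2 fold change -2.07). *SIRPB1*, *NRK*, *EDA*, *SOX21*, *SPOCK3*, *CRLF2* and *CRISPLD1* fell by between 1.77 and 2.54 on the log2 scale. For 815 bases of *SIRPB1* the exons are shared with a gene on the same strand.

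Of 42 gene lists that stand for pathways, 2 had most of their members called lower and 2 had most of their members called higher. In the counts of list members, lower, fell, higher and rose refer to members called at an edgeR adjusted p under 0.05. The lists were drawn up from general knowledge with earlier results of these data known, so they are described by counts and medians, beside a median of 0.0006 on the log2 scale over all genes tested.

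**Figure D2:**
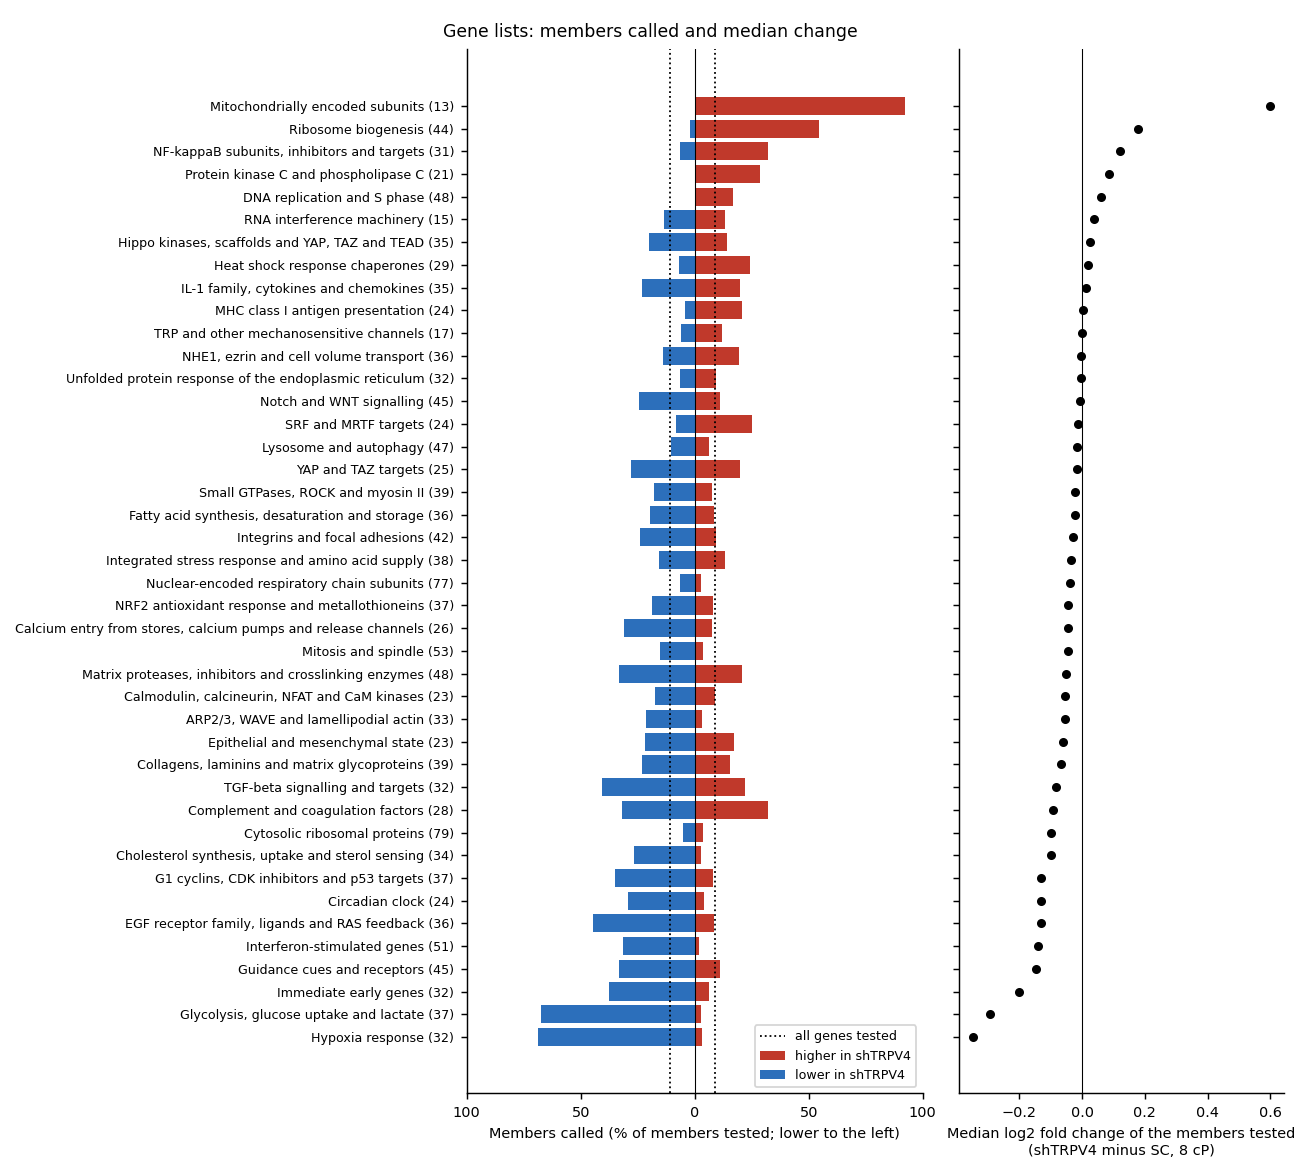
Gene lists ordered by the median log2 fold change of their members (shTRPV4 minus SC at 8 cP, right), with the percentage of members tested that were called higher (red, to the right) or lower (blue, to the left) at an edgeR adjusted p under 0.05. Numbers in parentheses are members tested, and dotted lines mark 9.02% higher and 11.0% lower over all genes. Over protein-coding genes, the nearer comparison, the shares were 10.8% higher and 13.5% lower. Hypoxia response (22 of 32 lower) and mitochondrially encoded subunits (12 of 13 higher) lie at the ends.

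Hypoxia-responsive transcripts were lower in the knockdown line. Of 32 members tested, 22 fell and 1 rose, with a median log2 fold change of -0.35. Their summed level was 3786 to 4233 CPM in SC samples and 2836 to 3184 CPM in shTRPV4 samples, without overlap. *DDIT4* (REDD1), an inhibitor of mTORC1 that is induced by hypoxia, had 204, 222 and 197 CPM in SC samples and 103.8, 121.5 and 132.7 CPM in shTRPV4 samples (log2 fold change -0.80, SE 0.08, edgeR adjusted p = 1.06e-05). *AK4*, a mitochondrial adenylate kinase, fell from 139 ± 9.92 CPM to 90.3 ± 2.6 CPM (SD, n = 3 each), *ERO1A*, an oxidase of the endoplasmic reticulum, from 200 ± 7.64 CPM to 140 ± 6.71 CPM, and *P4HA1*, a subunit of the collagen prolyl hydroxylase, from 220 ± 12.7 CPM to 146 ± 11.4 CPM. The lowest log2 fold change of the list was that of *RORA*, a nuclear receptor of the circadian clock (log2 fold change -1.42, 2.34 to 0.876 CPM). The member that rose, *EGLN2*, is an oxygen-sensing prolyl hydroxylase (log2 fold change 0.52, edgeR adjusted p = 0.0148), overlaps another gene of its strand by 2012 exon bases, and was not called without replicate 2 or replicate 3 of the SC cells at 8 cP (adjusted p up to 0.078).

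Enzymes and transporters of glycolysis moved in the same direction. Of 37 members tested, 25 fell and 1 rose, with a median log2 fold change of -0.29. *ENO1* (enolase 1) had 5309, 5259 and 5006 CPM in SC samples and 3512, 3912 and 3978 CPM in shTRPV4 samples (log2 fold change -0.45, SE 0.05, edgeR adjusted p = 2.61e-05). Among the PFKFB enzymes, which set the level of the activator of phosphofructokinase, *PFKFB3* fell from 123 ± 4.75 CPM to 91.4 ± 2.59 CPM (SD, n = 3 each) and *PFKFB4* from 60.7 ± 7.24 CPM to 35.9 ± 4.81 CPM, whereas *PFKFB2* rose from 15.3 ± 0.535 CPM to 23.2 ± 1.34 CPM. *ALDOC*, the brain-type aldolase, fell from 6.27 ± 0.822 CPM to 2.93 ± 0.392 CPM, the lowest log2 fold change of the list. Neither count rested on a single sample, since leaving out each of the 9 samples gave 17 to 24 lower members for hypoxia and 22 to 26 for glycolysis.

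Most transcripts of the mitochondrial genome rose. Of 13 mitochondrially encoded subunits 12 rose, with a median log2 fold change of 0.60. *MT-CYB*, a subunit of complex III, had 952, 804 and 925 CPM in SC samples and 1572, 1459 and 1469 CPM in shTRPV4 samples (log2 fold change 0.75, SE 0.10, edgeR adjusted p = 6.68e-05). *MT-ND5* of complex I rose by 0.76, *MT-ATP8* by 0.74 and *MT-ATP6* of the ATP synthase by 0.69 on the log2 scale. The member that was not called was *MT-ND3*, with 680 ± 39.6 CPM in SC and 745 ± 73.2 CPM in shTRPV4 cells (SD, n = 3 each). Of 77 nuclear genes for respiratory chain subunits, 2 rose and 5 fell (9.09% called), with a median of -0.04. Without replicate 3 of the shTRPV4 cells 14 of these fell, and without replicate 1 of them the median was 0.015 and 2 fell.

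**Figure D3:**
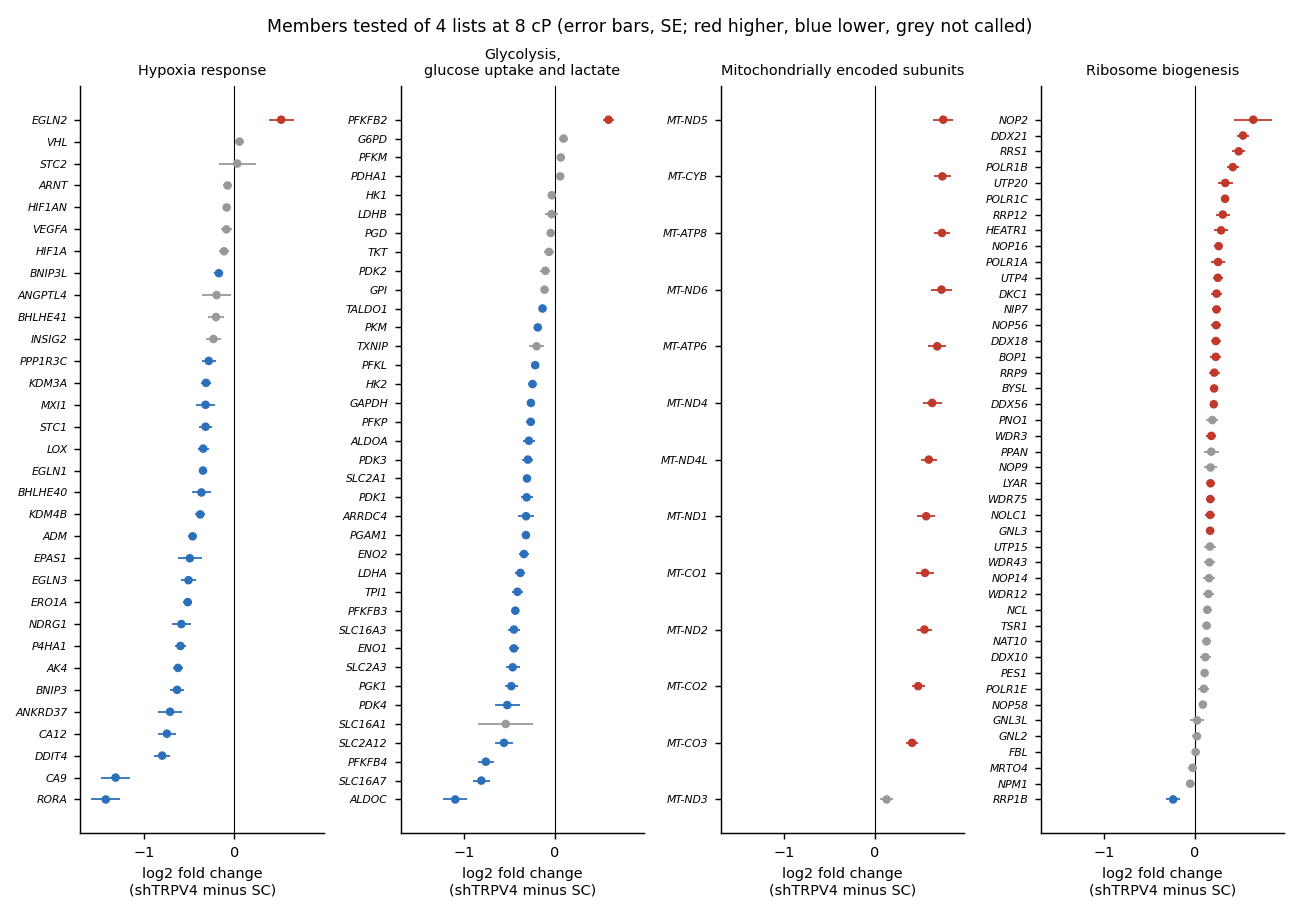
Log2 fold change (shTRPV4 minus SC at 8 cP) of every member tested of 4 lists, with the SE as error bar. Red and blue mark members called higher or lower at an edgeR adjusted p under 0.05, grey those not called. The hypoxia and glycolysis members lie mostly left of 0, with medians of -0.35 and -0.29, and the mitochondrially encoded and ribosome biogenesis members mostly right of it, with medians of 0.60 and 0.18.

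Many factors that build ribosomes rose. Of 44 ribosome biogenesis genes, 24 rose and 1 (*RRP1B*) fell, and 41 had a log2 fold change above 0. *RRP1B* lost its call in 4 of the 9 cases with a sample left out. *DDX21*, a helicase of ribosomal RNA synthesis and processing, had 276, 282 and 313 CPM in SC samples and 439, 417 and 405 CPM in shTRPV4 samples (log2 fold change 0.53, SE 0.07, edgeR adjusted p = 6.21e-05). *POLR1B*, a core subunit of RNA polymerase I, rose from 45.2 ± 2.94 CPM to 60.4 ± 4.11 CPM (SD, n = 3 each), and *POLR1C*, shared by polymerases I and III, from 38.7 ± 1 CPM to 48.8 ± 2.1 CPM. *RRS1*, a regulator of 60S assembly, rose by 0.48 on the log2 scale. The count of 24 was 13 without replicate 1 and 14 without replicate 2 of the SC cells at 8 cP, with medians of 0.16 and 0.18. Of 79 cytosolic ribosomal proteins, 3 rose and 4 fell (8.86% called, median -0.10), and only 7 of the 79 had a log2 fold change above 0. Without replicate 3 of the shTRPV4 cells, 24 of the 79 fell. Of 48 DNA replication genes 8 rose (16.7%), and 4 did without replicate 1 or replicate 2 of the SC cells at 8 cP or replicate 2 of the shTRPV4 cells. The tRNA synthetase *NARS1* rose from 131 ± 3.76 CPM to 190 ± 4.51 CPM and the amino acid transporter *SLC7A5* from 409 ± 40.2 CPM to 605 ± 68.6 CPM (log2 fold changes 0.54 and 0.57), in a list of amino acid supply and integrated stress response genes with 5 of 38 higher and 6 lower. Of these 3 were higher without replicate 1 or 2 of the SC cells at 8 cP, replicate 2 of the shTRPV4 cells or replicate 2 of the SC cells at 0.77 cP.

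Feedback inhibitors and ligands of the EGF receptor and RAS pathway fell more often than they rose. Of 36 members tested, 16 fell and 3 rose, with a median log2 fold change of -0.13. *SPRY4*, a Sprouty inhibitor of receptor tyrosine kinase signalling, had 117, 110 and 109 CPM in SC samples and 73.5, 72.4 and 70.5 CPM in shTRPV4 samples (log2 fold change -0.64, SE 0.04, edgeR adjusted p = 1.64e-07). *DUSP6*, the phosphatase of ERK, fell from 218 ± 8.33 CPM to 147 ± 7.58 CPM (SD, n = 3 each), *SPRY1* from 31.2 ± 0.714 CPM to 20.1 ± 1.68 CPM and the ligand *EREG* (epiregulin) from 39.1 ± 2.29 CPM to 27.2 ± 0.525 CPM. *PDGFB*, a platelet-derived growth factor chain, rose 2.56-fold from 0.424 to 1.08 CPM. Of 32 immediate early genes, which are transcribed within minutes of a stimulus, 12 fell and 2 rose (43.8% called, median log2 fold change -0.20). *NR4A2* fell by 1.34 on the log2 scale and *KLF2* by 0.44, whereas *FOSL1*, a partner of JUN in AP-1, rose from 338 ± 15.2 CPM to 493 ± 28.3 CPM (log2 fold change 0.54, edgeR adjusted p = 1.16e-05). Among genes of the cell cycle, *CDKN1A* (p21) fell from 155 ± 1.66 CPM to 117 ± 4.28 CPM, *CDKN2C* (p18) from 119 ± 3.03 CPM to 79.6 ± 2.64 CPM and *CDKN2D* (p19) from 48.5 ± 2.04 CPM to 34.6 ± 1.64 CPM, while *RB1* rose from 48.2 ± 0.936 CPM to 74.1 ± 3.5 CPM. The whole list of G1 cyclins, CDK inhibitors and p53 targets had 13 of 37 lower and 3 higher, and 7 lower without replicate 1 or without replicate 2 of the SC cells at 8 cP.

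Lists of mechanosensitive channels, calcium handling, calmodulin and protein kinase C genes had medians between -0.05 and 0.09 on the log2 scale. Between 17.6% and 38.5% of their members were called, against 24.2% of protein-coding genes. Of 17 TRP and other mechanosensitive channels tested, *TRPV4* fell and *KCNK2* and *TRPM7* rose, and neither rise was called without replicate 1 or replicate 2 of the SC cells at 8 cP or without replicate 1 of the shTRPV4 cells (adjusted p up to 0.0818 and 0.146). Of 26 calcium pumps, release channels and store-operated entry genes, 8 fell (30.8%) and 2 rose (7.69%). The plasma membrane calcium pump *ATP2B4* fell by 0.29 and the release channel *ITPR3* rose by 0.27 on the log2 scale. The count of 8 lower members was 4 without replicate 2 of the shTRPV4 cells and 5 without replicate 1 or replicate 2 of the SC cells at 8 cP. Of 23 calmodulin, calcineurin, NFAT and CaM kinase genes, 4 fell and 2 rose. *CAMK2B*, whose exons share 2325 bases with the other strand, rose from 1.07 ± 0.101 CPM to 3.08 ± 0.395 CPM (log2 fold change 1.52, edgeR adjusted p = 7.08e-06). Of 21 protein kinase C and phospholipase C genes, 6 rose (28.6%) and 0 fell. Those that rose included *PRKCZ*, *PRKCI* and *PLCG1*, by 0.52, 0.22 and 0.24 on the log2 scale.

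Actin and adhesion genes leaned lower. Of 42 integrin and focal adhesion genes, 10 fell and 4 rose. Besides *ITGB1*, the leukocyte-type integrin chain *ITGB2* fell from 11.0 ± 0.897 CPM to 5.76 ± 0.615 CPM (SD, n = 3 each, log2 fold change -0.94, edgeR adjusted p = 2.77e-06), and *NEDD9*, a docking protein of focal adhesions, by 0.68 on the log2 scale. Of 39 genes of small GTPases, ROCK and myosin II, 7 fell and 3 rose. *MYLK* and *ARHGDIB* are described above, and the GTPase *RHOB* fell by 0.54. Of 33 ARP2/3, WAVE and lamellipodial genes, 7 fell and 1 rose, among them the capping protein *CAPZB* (log2 fold change -0.32) and the WAVE subunit *WASF2* (-0.24), both on chromosome 1. Without genes of chromosomes 1, 4 and 7, 2 of 22 fell. Of 24 SRF and MRTF targets 6 rose and 2 fell, and 3 rose and 1 fell without replicate 2 of the SC cells at 8 cP. Of 36 genes of NHE1, ezrin and cell volume transport 7 rose and 5 fell (4 and 4 without replicate 1 or replicate 2 of the SC cells at 8 cP or replicate 2 of the shTRPV4 cells), with the ezrin relative *MSN* (moesin) higher (log2 fold change 0.27).

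The Hippo pathway showed no common direction. Of 35 kinases, scaffolds and effectors 7 fell and 5 rose, and of 25 YAP and TAZ targets 7 fell and 5 rose. Of the first list 1 rose without replicate 2 of the SC cells at 8 cP, and 6 rose and 5 fell without replicate 3 of the shTRPV4 cells. Of the targets 3 rose without replicate 2 or replicate 3 of the SC cells at 8 cP or without replicate 2 of the shTRPV4 cells. *YAP1*, the coactivator that the pathway restrains, had 186, 182 and 188 CPM in SC samples and 131, 129 and 126 CPM in shTRPV4 samples (log2 fold change -0.53, SE 0.05, edgeR adjusted p = 1.73e-06). The protocadherin *FAT4* fell by 0.39 and the scaffold *WWC1* (KIBRA) rose by 0.27 on the log2 scale. Among targets, *ANKRD1* rose from 364 ± 20.2 CPM to 556 ± 92.5 CPM and *F3* (tissue factor) from 434 ± 6.63 CPM to 586 ± 19.6 CPM (SD, n = 3 each), whereas *NT5E* fell from 676 ± 5.27 CPM to 519 ± 11.4 CPM and the receptor *AXL* from 1422 ± 31 CPM to 1148 ± 41.1 CPM. Of 32 TGF-beta genes 13 fell and 7 rose, and 3 rose without replicate 2 of the SC cells at 8 cP or replicate 2 of the shTRPV4 cells. *SMAD6*, an inhibitory SMAD, and *ID3*, a target of BMP signalling, fell by 0.83 and 0.53 on the log2 scale, while *INHBA*, the subunit of activin A, rose by 0.92.

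Matrix and guidance genes changed in both directions. Of 48 matrix proteases, inhibitors and crosslinking enzymes 16 fell and 10 rose, and 6 rose without replicate 3 of the shTRPV4 cells. *LOXL2*, a lysyl oxidase that crosslinks collagen, had 516, 497 and 482 CPM in SC samples and 264, 283 and 293 CPM in shTRPV4 samples (log2 fold change -0.83, SE 0.05, edgeR adjusted p = 2.08e-08). The collagenase *MMP1* fell from 10.6 ± 1.8 CPM to 4.3 ± 2.23 CPM (SD, n = 3 each) and the protease *ADAMTS9* rose from 11.0 ± 1.07 CPM to 20.3 ± 0.904 CPM. Of 39 collagens, laminins and glycoproteins 9 fell and 6 rose, led by *COL13A1*, a transmembrane collagen (log2 fold change -0.57). Of 45 guidance cues and receptors 15 fell and 5 rose (3 rose without replicate 1 of the SC cells at 8 cP or replicate 3 of the shTRPV4 cells), among them the SLIT receptor *ROBO1* (8.50 ± 0.518 CPM to 4.23 ± 0.73 CPM), the plexin *PLXNA4* (12.6 ± 1.12 CPM to 6.68 ± 0.59 CPM) and the netrin *NTN4* (42.9 ± 0.544 CPM to 30.1 ± 0.425 CPM), all lower. In Notch and WNT signalling 11 of 45 fell and 5 rose, with the WNT receptor *FZD8* lower (12.2 ± 0.511 CPM to 5.32 ± 0.432 CPM) and the Notch coactivator *MAML3* lower (5.76 ± 0.385 CPM to 2.33 ± 0.237 CPM).

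Inflammatory genes split by pathway. Of 31 NF-kappaB subunits, inhibitors and targets 10 rose and 2 fell, with a median log2 fold change of 0.12. *RELB*, a subunit of the non-canonical pathway, had 20.5, 20.9 and 18.8 CPM in SC samples and 28.0, 29.5 and 30.4 CPM in shTRPV4 samples (log2 fold change 0.55, SE 0.06, edgeR adjusted p = 1.81e-05). Interferon-stimulated genes went the other way, with 16 of 51 lower and 1 higher. The guanylate-binding protein *GBP3* fell from 114 ± 4.88 CPM to 72.7 ± 4.12 CPM (SD, n = 3 each) and *OASL*, of the oligoadenylate synthetase family, from 35.6 ± 1.67 CPM to 26.2 ± 1.51 CPM. The count of 16 was 10 without replicate 1 or without replicate 2 of the SC cells at 8 cP. Complement and coagulation factors had 9 members higher and 9 lower of 28, and 5 lower without replicate 1 or replicate 2 of the SC cells at 8 cP. *C3*, the central complement component, had 1.69, 1.88 and 1.49 CPM in SC samples and 3.90, 4.97 and 7.24 CPM in shTRPV4 samples (log2 fold change 1.67). It overlaps another gene of its strand by 1357 exon bases. Among cytokines, *TNFSF15* and *IL32* rose by 1.70 and 0.91, and *OSMR*, the oncostatin M receptor, fell from 125 ± 14.6 CPM to 74.2 ± 4.0 CPM. Of 34 cholesterol genes 9 fell and 1 rose, a count of 9 that was 3 without replicate 2 and 4 without replicate 1 of the SC cells at 8 cP and 4 without replicate 2 of the shTRPV4 cells.

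The calls were not spread evenly over the genome. On chromosome 1, 16.4% of 1873 genes were called lower and 5.50% higher, and on chromosome 4, 20.6% of 684 were lower and 3.36% higher. On chromosome 7 the balance was the other way, with 16.7% of 929 genes higher and 5.92% lower. In blocks of about 25 neighbouring genes of at least 1 CPM, the first 23 blocks of chromosome 1 (GRCh38, chr1:14404-84574480) had medians below 0 without exception. There 22.9% of 809 genes were lower and 2.97% higher, with a median log2 fold change of -0.10. The last 20 blocks of chromosome 7 (chr7:39566385-158956747) all had medians above 0, with 18.0% of 722 genes higher, 5.54% lower and a median of 0.09. A run of 11 blocks on chromosome 4 (chr4:52659406-168318883) lay below 0, with 23.9% of 402 genes lower, 2.74% higher and a median of -0.12. These stretches were picked out after their values had been seen, and they are given without a test.

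**Figure D4:**
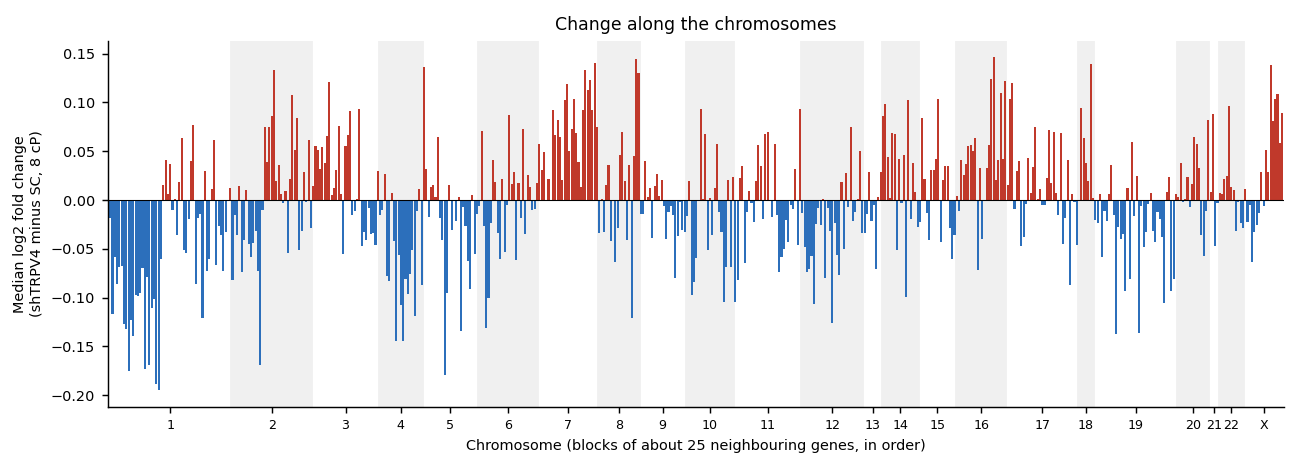
Median log2 fold change (shTRPV4 minus SC at 8 cP) in consecutive blocks of about 25 genes of at least 1 CPM, in their order along chromosomes 1 to 22 and X. Red bars lie above and blue bars below 0. The first 23 blocks of chromosome 1 and 11 neighbouring blocks of chromosome 4 are all below 0, and the last 20 blocks of chromosome 7 are all above it.

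The lists were also counted outside these chromosomes. Without genes of chromosomes 1, 4 and 7, 19 of 28 hypoxia genes were lower and 1 higher, 22 of 30 glycolysis genes were lower, and 20 of 37 ribosome biogenesis genes were higher and 1 lower, beside 9.24% higher and 10.1% lower over the 14778 genes left. Among EGF receptor and RAS feedback genes 9 of 24 were lower and 2 higher.

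The 7 bases that pair with the hairpin's seed, TCACATA, were counted in the 3′ UTRs of the genes. Of 13579 tested genes with an annotated 3′ UTR, 11.1% held them. The share was 14.8% of the 1839 genes called lower, 10.2% of the 1454 called higher and 10.6% of those not called. It was 19.7% of the 432 genes lower by 0.5 or more on the log2 scale and 7.47% of the 308 higher by 0.5 or more. The median length of the 3′ UTR was 1866 bases in the first of these and 1040 bases in the second, and the matches per 10 kb of 3′ UTR were 0.867 and 0.589. The letters of the other strand, TATGTGA, which do not pair with the seed, were held by 16.4% of genes called lower, 15.6% of those called higher, 19.4% of those lower by 0.5 or more and 10.7% of those higher by 0.5 or more. Per 10 kb of 3′ UTR, the other strand's letters occurred 1.02 and 0.691 times in genes lower and higher by 0.5 or more. Over all genes with a 3′ UTR the share with the other strand's letters was 14.7%, against 11.1% with the match. Counted the other way, 272 of the 1508 genes with a match were lower (18.0%) and 149 higher (9.88%). Of the 12071 genes without a match, 1567 were lower (13%) and 1305 higher (10.8%). These shares are given without a test, and 3′ UTR lengths differed between the groups. Of the 10 genes that fell with the smallest p, 9 had an annotated 3′ UTR, of which 4 held the match and 2 the other strand's letters. Of the 10 that rose with the smallest p, 9 had one, of which 0 held the match and 3 the other strand's letters. The 21 bases around the 4 matches are shown in the order of the *TRPV4* site, with the seed match in capitals.
PHLDA2: tggttctttgtagTCACATAt
PDIA6: gagtcgtattctgTCACATAa
ATXN7L3B: tgggaagtaagagTCACATAt
RACGAP1: ccttctcctcaagTCACATAa
They lie on the minus strand at chr11:2928495-2928515, the minus strand at chr2:10784022-10784042, the plus strand at chr12:74539748-74539768 and the minus strand at chr12:49990079-49990099 (GRCh38). Outside the seed match, 9, 7, 5 and 6 of 14 bases were the same as in the *TRPV4* site. The 3′ UTRs of *ITGB1*, *SHISA3*, *TLR4*, *NOC2L* and *ARHGDIB* held no match. A match is a run of letters and not a measured site, and its part in these falls was not tested. Without genes that hold a match, 21 of 29 hypoxia genes and 22 of 33 glycolysis genes were lower, and 22 of 41 ribosome biogenesis genes were higher.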

How the data were processed

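Poly(A) RNA of 9 MDA-MB-231 samples was sequenced as 100 bp read pairs with a directional kit. Per the labels and the study's methods, the authors aligned reads to GRCh38.p13 with HISAT2 (2.2.1), counted exon reads per Ensembl 104 gene with HTSeq (0.13.5) and deposited the raw counts, not normalised. The strand setting of the counting was not given in the sources used here, so reads of overlapping genes on opposite strands may not be told apart. Shared exon bases are given for only some of the named genes that have them. Symbols and 3′ UTRs came from GENCODE 44 on GRCh38 (60463 of 60664 IDs matched, and *SOD2* of the lists was not matched).

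All 9 samples entered 1 quasi-likelihood fit in edgeR (4.0.16) in R (4.3.3), with TMM scaling, filterByExpr and 1 coefficient per group. The contrast was shTRPV4 minus SC at 8 cP, with Benjamini-Hochberg adjustment over 18264 genes and a threshold of 0.05. Counts below the floor of 3 were described as not detected. The floor covers counting error only and entered no fit. SDs are between the samples of a group, and SEs come from the fit. The fit was tested on simulated data. Genes were named by a rule. It gave *TRPV4*, the 10 largest changes and the 10 smallest adjusted p in each direction, and the 4 smallest p of each list. The largest called rise and fall of each list were named as well. Largest changes were taken from called genes with at least 1 CPM in a group and no overlap between the samples of the lines. Genes with clone-based names were left out of the largest changes. Markers, *MT-ND3* and members of small counts were added after their values were seen. A few genes the rule gave are not reported here. Members and lists were chosen with earlier results of these data known. Alternatives were other scalings, filters and samples, DESeq2 (1.42.0), a fold threshold, a replicate block and leaving out each sample.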

Additional observations from a re-analysis of the deposited data

How the results depend on the processing

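The 3649 calls (1647 higher, 2002 lower) became 3622 with DESeq2 size factors, 3647 with upper quartile scaling, 3902 without a filter, 3634 with at least 10 counts in every sample, 3637 with the 6 samples at 8 cP alone and 3848 with DESeq2. A log2 fold change of at least 1 left 345, 144 higher and 201 lower. Leaving out each sample gave 2179 to 3836 calls, 893 to 1743 higher and 1286 to 2093 lower. The lowest counts came without replicate 2 of the SC cells at 8 cP, and there were 2361 calls without their replicate 1. The cause was not tested. Of 232 called genes among the 238 that the naming rule gave, 198 kept their call in every fit that tested them. A further 34 lost it in at least 1, and 0 changed sign. The fold threshold was left out of these counts.

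The replicate number did not pair the samples, since same-numbered samples at 8 cP had correlated deviations of -0.0295, 0.137 and -0.223. With the replicate block 3607 genes were called over 9 samples and 3001 over the 6 at 8 cP, of which 3436 and 2920 were also called without it, and *TRPV4* had an edgeR adjusted p of 0.0063 and 0.0187. Low counts limit the precision for weakly expressed genes such as *TRPV4*, with 1 to 64 counts a sample at 8 cP.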

Other observations

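Clock genes and chaperones moved by small amounts. Of 24 circadian clock genes 7 fell and 1 rose, with a median log2 fold change of -0.13, and 4 fell without replicate 1 or replicate 2 of the SC cells at 8 cP or replicate 2 of the shTRPV4 cells. The repressor *NFIL3* fell from 29.5 ± 0.466 CPM to 23.6 ± 1.4 CPM (SD, n = 3 each) and *DBP*, an output factor of the clock, from 8.72 ± 0.695 CPM to 6.21 ± 0.746 CPM, while *BMAL2*, a partner of CLOCK, rose from 95.9 ± 6.22 CPM to 110.5 ± 3.52 CPM, a call lost without replicate 1 or replicate 2 of the SC cells at 8 cP (edgeR adjusted p up to 0.0852). Of 29 heat shock chaperones 7 rose and 2 fell, and 3 rose without replicate 1 or replicate 2 of the SC cells at 8 cP. *HSPD1*, the mitochondrial chaperonin, rose from 687 ± 20.9 CPM to 815 ± 15.6 CPM and *HSPH1*, a cytosolic exchange factor of HSP70, from 204 ± 8.74 CPM to 248 ± 14.4 CPM.

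Of 53 mitosis and spindle genes 8 fell and 2 rose, and 4 fell without replicate 3 and 5 without replicate 2 of the SC cells at 8 cP. The phosphatase *CDC25C* fell from 30.4 ± 1.69 CPM to 23.8 ± 0.831 CPM, and the checkpoint protein *MAD2L1* rose from 145 ± 9.62 CPM to 182 ± 12.5 CPM. Of 24 genes of MHC class I presentation 5 rose and 1 fell, with the peptide-trimming enzyme *ERAP1* higher (log2 fold change 0.23) and *HLA-E* lower (-0.21). *HLA-E* lost its call without replicate 1 or 2 of either line at 8 cP (edgeR adjusted p up to 0.0929), and 3 members rose without replicate 2 or 3 of the SC cells. Of 37 NRF2 targets and metallothioneins 7 fell and 3 rose, including the cystine transporter *SLC7A11*, which fell from 53.1 ± 5.94 CPM to 40.3 ± 4.98 CPM, and *HMOX1*, heme oxygenase 1, which rose from 14.6 ± 0.234 CPM to 17.7 ± 0.462 CPM. Lists of the unfolded protein response (3 higher, 2 lower of 32), lysosome and autophagy (3 higher, 5 lower of 47), fatty acid synthesis (3 higher, 7 lower of 36), epithelial and mesenchymal state (4 higher, 5 lower of 23), cytokines (7 higher, 8 lower of 35) and RNA interference (2 higher, 2 lower of 15) had medians between -0.06 and 0.04 on the log2 scale. In these 6 lists leaving out each sample moved the counts by over 1.5 times in at least 1 direction. The cytokine count of 8 lower, for example, was 3 without replicate 1 and 4 without replicate 2 of the SC cells at 8 cP.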
